A study of Homo sapiens with 10 samples.

Results

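The D-type cyclins CCND1, CCND2 and CCND3 and their partner kinases CDK4 and CDK6 were followed in IMR90, a line of normal human fibroblasts derived from fetal lung. These are 5 of 19775 genes named on the array. They were read from every probe set that the platform annotation assigns to exactly 1 of these symbols, which gave 16 of 54675 probe sets. Senescent IMR90 cells at 90 population doublings were measured on 5 Affymetrix HG-U133 Plus 2.0 arrays and proliferating IMR90 cells at 28 population doublings on another 5. No genetic change is named for either, and all cells were grown in 3% oxygen with 10% serum. The senescent cells had been passaged to growth arrest and then kept for 2 weeks, so passage number and growth state differ together between the groups and cannot be told apart. Whether the 5 arrays of a condition stem from independent cultures is not stated in the labels. The p-values therefore reflect the scatter among these arrays alone, and that scatter may be technical. The labels also list lower expression of cyclin genes among the signs by which senescence was judged, without saying which cyclins were read.

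D-type cyclins are the cyclins that growth factor signals act on. Each binds CDK4 or CDK6, and the complex phosphorylates the retinoblastoma protein RB and its relatives, which frees E2F transcription factors to switch on genes of S phase. The INK4 inhibitors, p16 among them, bind CDK4 and CDK6 and block this step, and accumulation of cyclin D1 in senescent human fibroblasts is known from earlier work.

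The deposited values are log2 values, on which a difference of 1 is a 2-fold difference. Array medians lay between 3.05 and 3.12, and arrays correlated at 0.992 to 0.997 within a condition and at 0.940 to 0.947 across conditions. All 13 fibroblast markers examined, COL1A1, PDGFRA and THY1 among them, lay above the array's 60th percentile on all 10 arrays. All 6 leukocyte markers on the array lay below it on all 10, as did 6 of 7 endothelial and 4 of 10 epithelial markers, whereas 4 of 6 smooth muscle markers lay above it. The summed smooth muscle signal was 13.4 to 13.6 on senescent and 12.5 to 13.0 on proliferating arrays, and the endothelial sum, carried by TEK, was 10.5 to 10.7 on senescent and 9.65 to 10.1 on proliferating arrays (log2). The epithelial sum was lower on senescent arrays, at 9.91 to 10.07 against 10.27 to 10.52 on proliferating arrays, with KRT18, SFTPC and SFTPB above the 60th percentile on all 10. Their part in the results below was not tested. In bulk RNA, fewer cells of a type and less RNA per cell cannot be told apart.

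All 3 D-type cyclin genes and CDK6 were higher in senescent cells, and CDK4 was lower. Of the 16 probe sets, 14 passed the filter on low values, set at the 40th percentile of each array and to be exceeded on 5 or more of the 10. The other 2, one of CCND3 and one of CDK6, stayed near the bottom of the scale in both groups. All 14 were called at limma's adjusted p below 0.05, 13 higher and 1 lower, and their groups did not overlap. Over all 32732 probe sets tested, 53% were called (26.9% higher and 26.2% lower) and 44.5% had groups that did not overlap, so a call is not by itself a result about these genes. Passing the filter rested on the senescent arrays alone for 1 of the 14, CCND2 probe set 200951_s_at, so its call and its separated groups add no support. Each of the 14 gave 0.00794 in a two-sided exact permutation test, the smallest p that 5 against 5 arrays allow (not adjusted over the members).

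Taken as genes, with the brightest tested probe set of each, all 5 were called and had groups that did not overlap. Over 12909 genes 60.2% were called and 51.8% did not overlap.

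**Figure D1:**
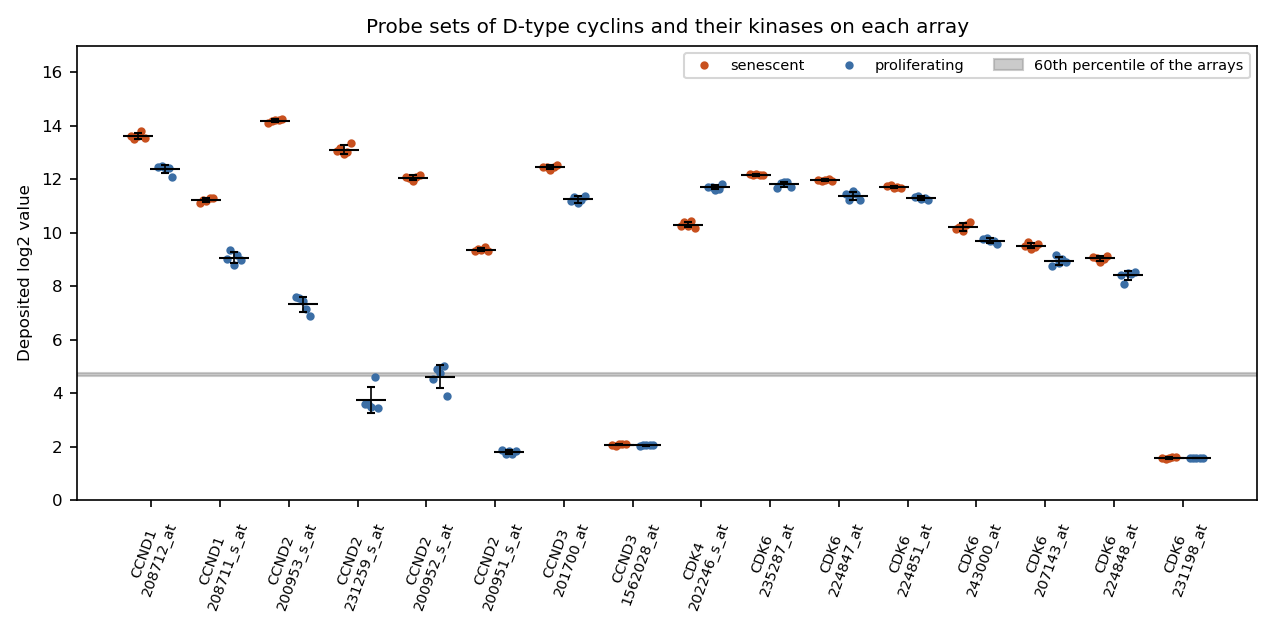
Deposited log2 value (vertical axis) of each of the 16 probe sets on each array, with 5 senescent arrays left and 5 proliferating arrays right of each mark; bars are the mean and the SD, and the grey band is the range of the arrays' 60th percentiles (4.64 to 4.77). The 4 CCND2 probe sets are furthest apart, CDK4 is the only gene whose senescent points lie below the proliferating ones, and probe sets 1562028_at and 231198_at lie near 2 in both groups.

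CCND2, which encodes cyclin D2, was the member that differed most. On probe set 200953_s_at its log2 values were 14.11, 14.19, 14.22, 14.22 and 14.24 on senescent arrays 1 to 5, against 7.59, 7.54, 7.43, 7.14 and 6.89 on proliferating arrays 1 to 5. Every senescent array thus lay at least 6.52 above every proliferating array, and the senescent arrays were the more alike of the groups. The means were 14.19 ± 0.05 in senescent and 7.32 ± 0.30 in proliferating cells (SD, n = 5 each), a difference of 6.88 (SE 0.13) or 117-fold (limma's adjusted p = 1.0e-10).

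The other 3 CCND2 probe sets gave larger differences. Probe set 231259_s_at read 13.06, 13.17, 12.93, 13.03 and 13.34 on senescent arrays, against 3.60, 3.60, 3.47, 4.62 and 3.45 on proliferating arrays. On 200952_s_at the values were 12.07, 12.03, 11.93, 12.07 and 12.17 on senescent arrays and 4.54, 4.92, 4.76, 5.01 and 3.90 on proliferating arrays. Probe set 200951_s_at read 9.30 to 9.47 with a median of 9.34 on senescent arrays, against 1.72 to 1.87 with a median of 1.85 on proliferating arrays. The groups were far apart on each, with measured differences of 9.36, 7.43 and 7.57 on the log2 scale, which are given as descriptions because the proliferating values lay at or near background. Probe set 200953_s_at ranked 10 of 32732 tested probe sets by measured increase, with these 3 CCND2 probe sets above it.

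How large the CCND2 fold is depends on the probe set. Proliferating signal lay below the 60th percentile on 5 of 5 arrays for 231259_s_at and 200951_s_at and on 2 of 5 for 200952_s_at, so the size of those 3 differences rests on the background correction. Only 200953_s_at was above that level on all 10 arrays. No test between the CCND2 probe sets is given, since it would compare values at background, and 200951_s_at was among the tested probe sets through its senescent arrays alone. All 4 identifiers end in _s_at, which marks probe sets shared between transcripts.

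CCND1 encodes cyclin D1, the D-type cyclin most often linked to growth factor signalling in fibroblasts. Its brighter probe set 208712_at read 13.61, 13.50, 13.62, 13.79 and 13.52 on senescent arrays, against 12.45, 12.49, 12.40, 12.43 and 12.10 on proliferating arrays. The groups were separated by 1.01, with proliferating 5 lowest. The means were 13.61 ± 0.11 in senescent and 12.37 ± 0.16 in proliferating cells (SD, n = 5 each), a rise of 1.24 (SE 0.08, 2.35-fold, limma's adjusted p = 7.2e-07).

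On the dimmer CCND1 probe set 208711_s_at, senescent arrays read 11.12, 11.21, 11.20, 11.32 and 11.28 and proliferating arrays 9.03, 9.37, 8.81, 9.18 and 8.97. The rise there was 2.15 (SE 0.10), or 4.44-fold (limma's adjusted p = 3.8e-08). Within arrays the value of 208712_at minus that of 208711_s_at was lower in senescent cells by a difference of -0.92 (SE 0.10), without overlap between the groups (exact permutation p = 0.00794, not adjusted), so the 2 probe sets agreed on the direction and differed in size.

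CCND3, which encodes cyclin D3, was measured by 1 probe set above background. Probe set 201700_at read 12.44, 12.44, 12.36, 12.47 and 12.54 on senescent arrays, against 11.18, 11.34, 11.10, 11.21 and 11.39 on proliferating arrays. The lowest senescent value exceeded the highest proliferating value by 0.97. The means of 12.45 ± 0.06 in senescent and 11.24 ± 0.12 in proliferating cells (SD, n = 5 each) differed by 1.21 (SE 0.06, 2.31-fold, limma's adjusted p = 1.0e-07). Its other probe set, 1562028_at, read 2.08 ± 0.03 in senescent and 2.06 ± 0.01 in proliferating cells (SD, n = 5 each) and did not pass the filter. Fitted without a filter it differed by 0.02 (SE 0.01, limma's adjusted p = 0.32).

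**Figure D2:**
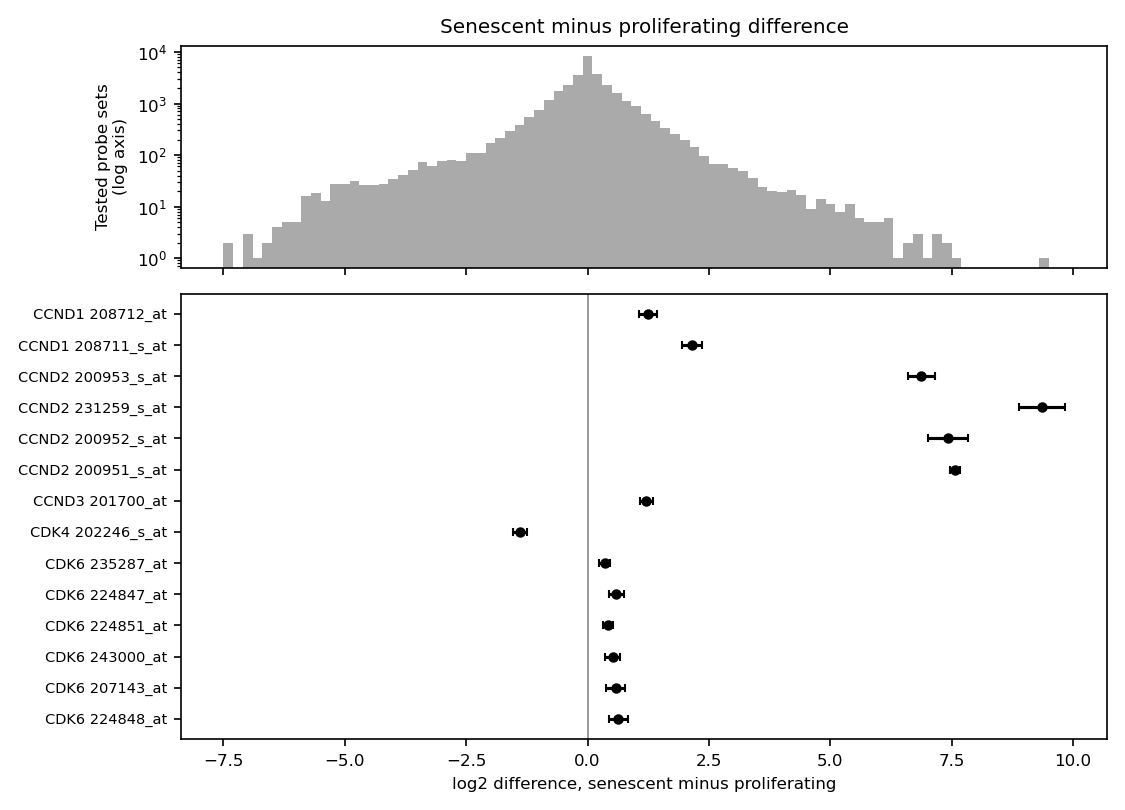
Lower panel, log2 difference of senescent minus proliferating means with its 95% confidence interval from limma for the 14 member probe sets that passed the filter; upper panel, the same difference for all 32732 tested probe sets (count on a log axis). The CCND2 probe sets lie at the right end of the distribution, between 6.88 and 9.36, with 231259_s_at, 200952_s_at and 200951_s_at set against proliferating signal at or near background, CDK4 lies at -1.40, and the 6 CDK6 probe sets lie between 0.35 and 0.63.

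CDK4, one of the kinases that D-type cyclins activate, went the other way. Its single probe set 202246_s_at read 10.27, 10.40, 10.24, 10.43 and 10.19 on senescent arrays, against 11.72, 11.72, 11.60, 11.64 and 11.81 on proliferating arrays. All senescent arrays lay below all proliferating arrays, by at least 1.17. The means were 10.30 ± 0.10 in senescent and 11.70 ± 0.08 in proliferating cells (SD, n = 5 each). CDK4 fell by 1.40 on the log2 scale (SE 0.06), or 2.63-fold (limma's adjusted p = 3.3e-08).

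CDK6, the second kinase of the D-type cyclins, rose a little on 6 of its 7 probe sets. The brightest, 235287_at, read 12.18, 12.14, 12.19, 12.15 and 12.15 on senescent arrays, against 11.68, 11.86, 11.90, 11.90 and 11.71 on proliferating arrays. The groups were separated by only 0.24, and the proliferating arrays spread more widely. The means were 12.16 ± 0.02 in senescent and 11.81 ± 0.11 in proliferating cells (SD, n = 5 each), a rise of 0.35 (SE 0.05, 1.28-fold, limma's adjusted p = 0.00026).

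The other 5 CDK6 probe sets rose by log2 differences of 0.42 to 0.63 (1.34-fold to 1.55-fold), with limma's adjusted p at most 0.00021. Probe set 224848_at, with the largest CDK6 rise, read 8.92 to 9.13 (median 9.06) on senescent arrays and 8.09 to 8.52 (median 8.47) on proliferating arrays. The 7th, 231198_at, read 1.59 ± 0.03 in senescent and 1.58 ± 0.01 in proliferating cells (SD, n = 5 each) and did not pass the filter. Of 15 pairs among the 6 probe sets, 14 overlapped between the groups in their within-array difference, and the pairs differed in their rise by 0.02 to 0.28 in size (log2). Probe set 235287_at rose less than 224847_at, without overlap, and less than 207143_at and 224848_at (exact permutation p = 0.00794, 0.016 and 0.024, not adjusted). The pair 224847_at and 224851_at gave an unadjusted exact permutation p = 0.048, and the other pairs gave 0.063 or more. The smallest CDK6 rise depended on the scaling: with arrays centred on a housekeeping list, a scaling that lowered the median difference of all tested probe sets by a shift of -0.18, the 6 differences were 0.17 to 0.46 and 5 were still called. The exception was 235287_at, at 0.17 with limma's adjusted p = 0.15.

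A comparison within each array, which scaling cannot move, asked whether the genes changed by the same amount. Of 10 pairs of the 5 genes, each gene read from its brightest tested probe set, 9 changed unequally without overlap between the groups (exact permutation p = 0.00794 each, two-sided, not adjusted over the pairs). CCND2 rose by 5.64 (SE 0.10) more than CCND1 and by 5.67 (SE 0.17) more than CCND3 on the log2 scale. Relative to CDK4, CDK6 was higher in senescent cells by 1.75 (SE 0.09), a 3.35-fold shift in the ratio of the kinases. CCND1 and CCND3 were shifted against CDK4 by 2.63 (SE 0.11) and 2.60 (SE 0.06) and against CDK6 by 0.88 (SE 0.08) and 0.86 (SE 0.09).

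The pair CCND1 and CCND3 was the exception. CCND1 minus CCND3 was 1.16 ± 0.14 in senescent and 1.13 ± 0.24 in proliferating arrays (SD, n = 5 each), a difference of 0.03 (SE 0.12) with an exact permutation p = 0.857. That rests on the CCND1 probe set used: with the mean of each gene's tested probe sets CCND1 rose by 0.48 more than CCND3 (exact permutation p = 0.00794).

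**Figure D3:**
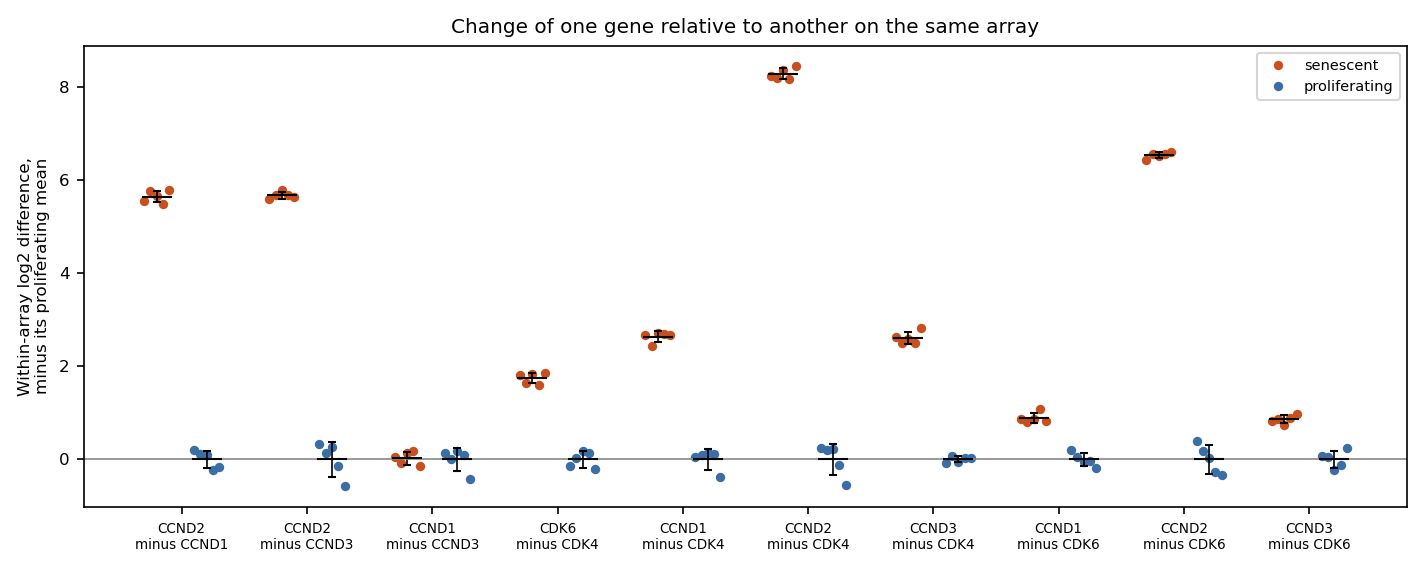
Within-array log2 difference between 2 genes, minus its mean over the proliferating arrays (vertical axis), for the 10 pairs, with senescent arrays left and proliferating arrays right; bars are the mean and the SD of 5 arrays. The groups overlap for CCND1 minus CCND3 and for no other pair, and the pairs with CCND2 are shifted by 5.64 to 8.27.

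Windows around annotated starts are shown for the 3 members that had one, of which CDK4 fell and CCND3 and CDK6 rose. CCND1 and CCND2, which also rose, had no window. RefSeq windows of 250 bases before to 50 bases after a start, on GRCh38.p14, matched CCND3, CDK4 and CDK6 with 6 windows in all, and 1 per gene is printed, 5′ to 3′ on the minus strand. The windows are chr12:57752261-57752560 for CDK4, chr7:92836524-92836823 for CDK6 and chr6:41941759-41942058 for CCND3. Capitals mark CACGTG (the E-box that MYC and MAX bind) and GGGCGG or its complement CCGCCC (the GC box).
CDK4: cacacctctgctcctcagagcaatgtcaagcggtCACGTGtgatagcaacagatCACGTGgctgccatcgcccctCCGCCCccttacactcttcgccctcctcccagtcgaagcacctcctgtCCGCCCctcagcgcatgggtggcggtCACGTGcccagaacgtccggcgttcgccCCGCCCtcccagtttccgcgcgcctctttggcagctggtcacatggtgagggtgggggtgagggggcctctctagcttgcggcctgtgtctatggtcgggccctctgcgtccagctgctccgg
CDK6: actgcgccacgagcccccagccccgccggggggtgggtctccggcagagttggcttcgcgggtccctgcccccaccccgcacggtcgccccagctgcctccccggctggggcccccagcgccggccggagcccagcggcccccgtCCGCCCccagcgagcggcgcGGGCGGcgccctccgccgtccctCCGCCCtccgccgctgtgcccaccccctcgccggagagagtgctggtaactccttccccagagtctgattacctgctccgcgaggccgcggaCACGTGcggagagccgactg
CCND3: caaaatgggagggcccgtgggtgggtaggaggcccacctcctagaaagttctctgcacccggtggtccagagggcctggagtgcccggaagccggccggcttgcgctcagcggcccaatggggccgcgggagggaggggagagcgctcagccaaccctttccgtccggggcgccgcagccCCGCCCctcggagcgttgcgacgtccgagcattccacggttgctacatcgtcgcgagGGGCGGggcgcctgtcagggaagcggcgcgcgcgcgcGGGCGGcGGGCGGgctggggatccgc

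The CDK4 window held 3 E-boxes, with their first bases at -216, -196 and -101 from the start. An E-box is found in 7.2% of 34796 different RefSeq windows searched on both strands, and at least 3 in 0.092%. The cut of 3 is the CDK4 window's own count, and shares for repeated matches were computed for the E-box alone. The printed CDK6 window held 1 E-box, at 31, and the 3 CCND3 windows and the other CDK6 window held none. GC boxes, present in 44.9% of all windows, numbered 3 in CDK4, 3 in the printed CDK6 and 4 in the printed CCND3 window, and no E-box overlapped a GC box. None of the 6 windows held TGANTCA (AP-1), TGACGTCA (CRE), TTTGGCGC or TTTCGCGC (E2F), which occur in 7.73%, 1.84% and 1.14% of windows. The CCAAT box (CCAAT), found in 34.6% of windows, was in 2 of the 3 CCND3 windows, at -136 in the printed one, where it is not in capitals, and in no CDK4 or CDK6 window. A match of letters is a description of the window and not a measured binding site.

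Listed inhibitor genes of CDK4, CDK6 and other CDKs moved in both directions, while those of the INK4 inhibitors p16 and p15 both rose. Of 7 CDK inhibitor genes listed, 5 were tested, and 3 rose and 2 fell, beside 30.5% of all 12909 genes higher and 29.8% lower. The other INK4 genes, CDKN2C and CDKN2D, were listed but not tested. CDKN2A (p16), CDKN2B (p15) and CDKN1A (p21) rose by log2 differences of 3.20, 2.28 and 1.27, and CDKN1B (p27) and CDKN1C (p57) fell, with differences of -1.16 and -1.26. CDKN2A, which the labels use as a sign of senescence, read 7.63 ± 0.18 in senescent and 4.43 ± 0.96 in proliferating cells (SD, n = 5 each). The proliferating mean lay below the arrays' 60th percentiles (4.64 to 4.77), so the size of the CDKN2A rise rests in part on values near background. CDKN1C was not called with a covariate for RNA integrity (difference -1.05, limma's adjusted p = 0.056).

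Downstream of CDK4 and CDK6, the RB family and E2F factors were mostly lower. Among 13 genes 9 fell and 1 rose, beside 29.8% of all genes lower and 30.5% higher. Their median log2 difference was -0.45 beside 0.04 over all genes. E2F8, E2F2 and the RB relative RBL1 fell, with differences of -5.03, -4.50 and -2.85, where the senescent signal of both E2F genes was low. E2F7, a repressor E2F, rose by 0.19, a call lost with housekeeping centring (difference 0.02, limma's adjusted p = 0.92) and with the RNA integrity covariate (limma's adjusted p = 0.38). It was also lost without proliferating array 1, 2 or 4 or senescent array 4 or 5 (limma's adjusted p = 0.059 to 0.073). RB1, named after its value was seen, fell by 0.49.

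Most genes that E2F factors switch on were lower. Of 18 tested S-phase genes 17 fell and 0 rose, with a median of -3.35, beside 29.8% of all genes lower and 30.5% higher. CCNE1 at -0.32 was not called (limma's adjusted p = 0.14). The thymidine kinase gene TK1, the helicase subunit gene MCM2 and the licensing factor gene CDT1 fell, with differences of -4.99, -3.86 and -3.73 and with low TK1 signal in senescent cells. Other cyclins and CDKs of the cell cycle, which include list members counted above, fell in 7 of 8 cases with a median of -3.46. The largest falls were CCNB2 at -4.82 (1 of its 2 tested probe sets called lower), CDK1 at -4.05 and CCNB1 at -3.65. None of these 8 rose, unlike the 3 D-type cyclins; CCNE1 was again the member not called. With housekeeping centring all 8 of these genes and all 18 S-phase genes were called lower.

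Cyclins and CDKs with roles outside the cell cycle core moved less. Of 25 tested, 13 fell and 5 rose, with a median of -0.30, beside 29.8% of all genes lower and 30.5% higher. CDK14, CCNJ and CDK20 fell, with differences of -1.44, -1.02 and -0.92, and CCNG2, the splicing-linked cyclin gene CCNL2 and CDK7 rose by 0.74, 0.72 and 0.58. CDK20 had low signal in senescent cells.

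Of 8 tested genes of the CDK-activating kinase and of kinase chaperones, which act on CDK4 and CDK6 protein, 3 rose and 3 fell (median -0.10), beside 30.5% of all genes higher and 29.8% lower. CDK7, the catalytic subunit of the CDK-activating kinase, rose by 0.58, whereas its partners CCNH and MNAT1 fell (-0.45 and -0.37). The chaperone gene CDC37, whose product delivers CDK4 to HSP90, rose by 0.48, a call lost under several alternatives, with housekeeping centring among them (limma's adjusted p = 0.057). FKBP5, an HSP90 partner that glucocorticoids induce, fell by 4.38. HSP90AB1 at -0.10 and HSP90AA1 at -0.11, named after their values were seen, were not called (limma's adjusted p = 0.26 and 0.21), although 1 of 4 HSP90AA1 probe sets was called lower. With housekeeping centring 5 of the 8 genes were called lower, HSP90AB1 and HSP90AA1 among them, and 2 higher.

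**Figure D4:**
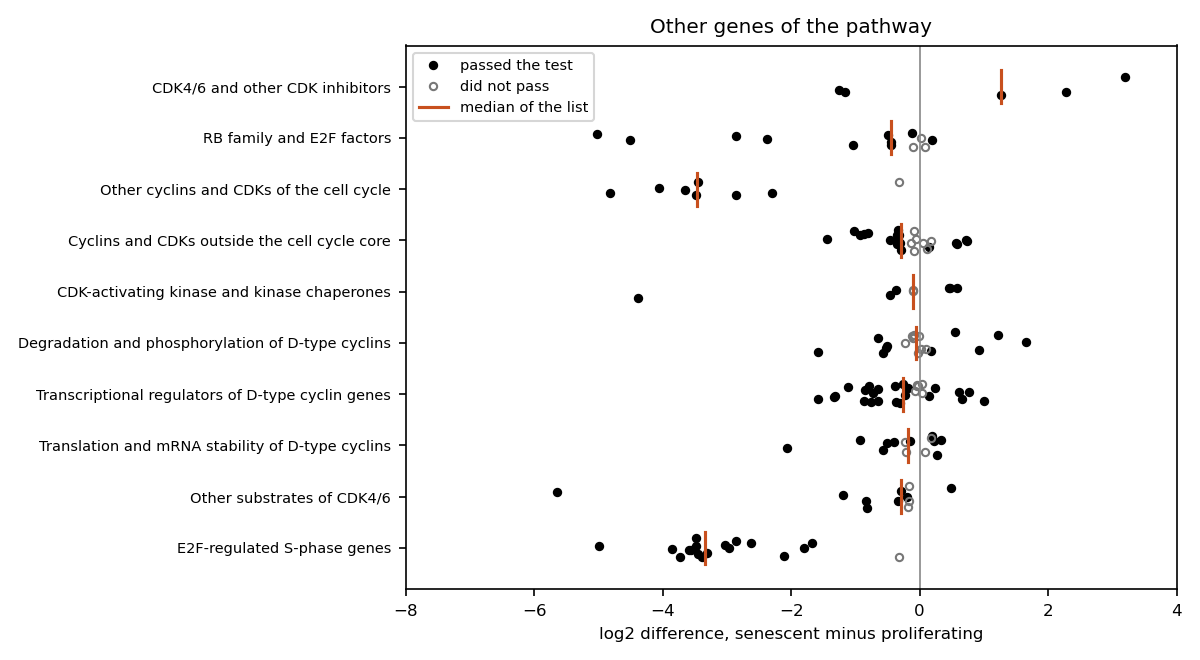
Log2 difference of senescent minus proliferating means (horizontal axis) for the tested genes of 10 lists, 1 probe set per gene; filled points passed limma's adjusted threshold, open points did not, and the bar is the list's median. Medians are -3.35 for E2F-regulated S-phase genes and -3.46 for other cell cycle cyclins and CDKs, and 1.27 for CDK inhibitors; the other 7 lie between -0.45 and -0.06.

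Among genes listed for degradation and phosphorylation of D-type cyclins, 5 of 18 tested rose and 5 fell (median -0.06), shares close to the 30.5% higher and 29.8% lower of all genes. BTRC, an F-box protein gene, rose by 1.65, and CRYAB, whose product works with FBXO4 on cyclin D1, rose by 1.21, whereas FBXO4 itself fell by 1.58. Only 1 of the 2 tested FBXO4 probe sets was called lower. DYRK1A, a kinase that phosphorylates cyclin D1, fell by 0.64. DCAF1 fell by 0.58 but was not called with the RNA integrity covariate (limma's adjusted p = 0.063). AMBRA1, the substrate receptor for all 3 D-type cyclins and named after its value was seen, differed by -0.11 and was not called (limma's adjusted p = 0.28).

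Transcription factors known to act on D-type cyclin genes were lower more often than higher. Of 29 tested, 17 fell and 6 rose, with a median of -0.25, beside 29.8% of all genes lower and 30.5% higher. EGR1, FOSL2 and TCF7L1 fell, with differences of -1.58, -1.33 and -1.32. FOXO4, WWTR1 (TAZ) and LEF1 rose by 1.00, 0.77 and 0.66, where FOXO4 had low signal in both groups and LEF1 in proliferating cells. LEF1 was not called with the replicate block (limma's adjusted p = 0.055) or with the RNA integrity covariate (limma's adjusted p = 0.11). MYC, named after its value was seen, read 9.67 ± 0.11 in senescent and 10.78 ± 0.10 in proliferating cells (SD, n = 5 each) and fell by 1.11 (limma's adjusted p = 3.4e-07). The MYC partner MAX, also named after its value was seen, rose by 0.15, with 2 of its 5 tested probe sets called higher. That rise is smaller in size than the shift of -0.18 that housekeeping centring brings.

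Regulators of D-type cyclin translation and mRNA stability gave 6 of 14 lower and 4 higher, with a median of -0.18. Over all genes 29.8% were lower and 30.5% higher. With housekeeping centring 8 of the 14 were called lower and 0 higher. EIF4EBP1, a repressor of cap-dependent translation, fell by 2.06, and the RNA-binding protein genes ELAVL1 and IGF2BP2 fell (-0.93 and -0.57). IGF2BP3, EIF4EBP2 and the miRNA-processing gene DICER1 rose by 0.34, 0.27 and 0.22, and none of these 3 was called with housekeeping centring (limma's adjusted p = 0.24, 0.52 and 0.66). Of 11 other substrates of CDK4 and CDK6, 7 fell and 1 rose (median -0.29), beside those shares over all genes. With housekeeping centring 10 of the 11 were called lower and 0 higher. FOXM1, a transcription factor for mitotic genes, fell by 5.64, and the phosphofructokinase gene PFKP and MARCKS fell too (-1.20 and -0.84). Only 1 of the 2 tested PFKP probe sets was called lower. TSC2 rose by 0.49, which was not called with housekeeping centring (limma's adjusted p = 0.11).

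Genes most like each member were found by the root mean square difference over the 10 arrays after taking off each probe set's own mean, as a description. This measure grows with the size of the change, so its values are not compared between members. Nearest to CCND2 were PURPL, a long noncoding RNA gene known as p53-regulated, SEMA6A and HAPLN1 (0.21, 0.41 and 0.41). The proliferating means of these 3 were low, at 2.56, 4.07 and 2.87 (log2), so their likeness to CCND2 rests in part on values near background. Nearest to CCND1 were TSPAN31, PLEKHA1 and ITPRIPL2 (0.07, 0.08 and 0.08), and nearest to CCND3 were PURA, CD46 and NUDT6 (0.06, 0.07 and 0.07). CNOT9, U2AF1 and TTI1 followed CDK4 (0.07 each), and MYLK, SDCBP and LAPTM4A followed CDK6 (0.04, 0.05 and 0.06). With 2 groups that differ widely, such likeness mostly reads the size of the difference between the groups.

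Of 18 tested genes next to a member on the chromosome, by RefSeq order, 8 rose and 4 fell, beside 30.5% of all genes higher and 29.8% lower. The comparison of up to 3 protein-coding neighbours on either side was chosen after values were seen. Neighbours follow gene order and not distance, from TSPAN31, which overlaps CDK4, to TPCN2, 551 kb from CCND1. TIGAR, a p53 target 16 kb from CCND2, rose by 1.498 (SE 0.10) and PARP11, 400 kb from CCND2 on its other side, fell by 0.85 (limma's adjusted p = 9.0e-07 and 3.0e-05). CDK4 fell, but TSPAN31, whose annotated span overlaps that of CDK4, rose by 1.18 (SE 0.06) and MARCHF9 by 3.38 (SE 0.18), with limma's adjusted p = 9.5e-08 and 1.3e-07. OS9 rose by 0.64 and METTL1 fell by 0.57 there. Beside CDK6 in this order, the interferon-responsive genes SAMD9L and SAMD9, 293 and 263 kb away, rose by 4.21 and 0.98. RBM48 and HEPACAM2 were not called. Beside CCND3, BYSL and MED20 fell (-0.58 and -0.37), C6orf132 rose by 0.30, and USP49 and TAF8 were not called. LTO1, beside CCND1, rose by 0.49, and TPCN2 there and CRACR2A beside CCND2 were not called.

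A sign of RNA integrity differed between the same groups. The 3′ minus 5′ difference of the ACTB control was 2.32 ± 0.10 in senescent and 2.07 ± 0.14 in proliferating arrays (SD, n = 5 each), which gave an unadjusted exact permutation p = 0.00794, and for GAPDH it was 0.12 ± 0.09 and -0.03 ± 0.18 (exact permutation p = 0.135). The ACTB values did not overlap between the groups (2.24 to 2.47 on senescent and 1.85 to 2.19 on proliferating arrays). A fit that adjusts for them therefore cannot tell RNA integrity and condition apart. With the ACTB difference as a covariate all 14 member probe sets kept their direction and their call. The 5 genes then differed by 6.89 (CCND2), 1.36 (CCND3), 1.24 (CCND1), 0.36 (CDK6) and -1.32 (CDK4).

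**Figure D5:**
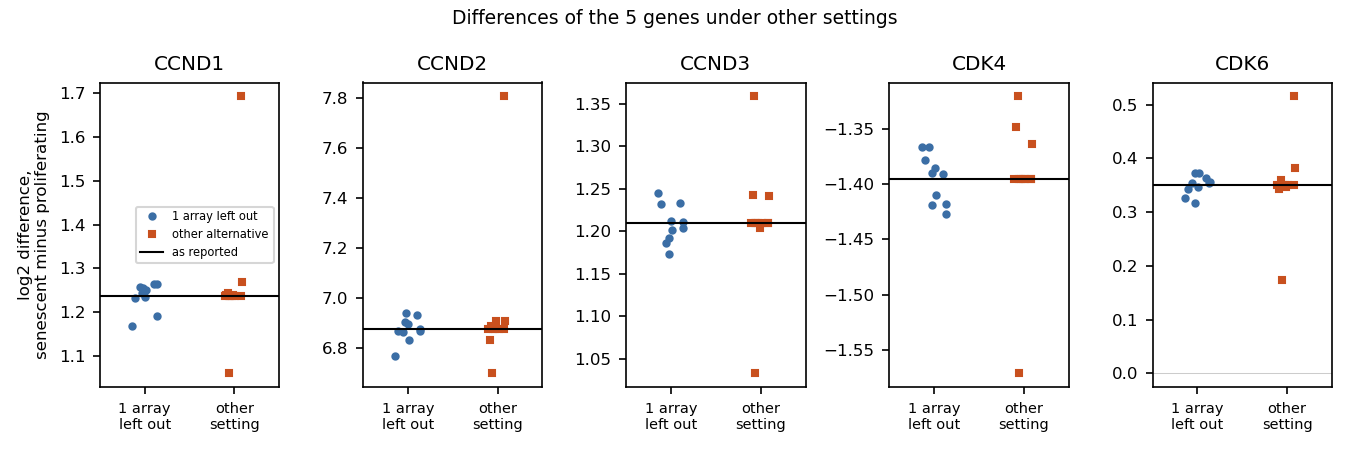
Log2 difference of senescent minus proliferating means (vertical axis, a scale of its own per gene) with 1 array left out (circles) and under the other alternatives (squares); the line is the value as reported. With 1 array left out the differences span 1.17 to 1.26 for CCND1, 6.77 to 6.94 for CCND2, 1.17 to 1.25 for CCND3, -1.43 to -1.37 for CDK4 and 0.32 to 0.37 for CDK6.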

How the data were processed

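Per the labels' protocols, Trizol was used to obtain total RNA, and biotin-labelled target was put on Affymetrix arrays. The authors deposited log2 values, 1 per probe set and array; the base was read from their range (0.62 to 16.2). Per the submitters' processing notes, Partek and GCRMA were used; versions, order and settings are not given here. Detection calls and scan dates were not used, and scan batches were not examined.

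Gene names came from the platform annotation, updated through gene identifiers in RefSeq (GRCh38.p14). A single symbol was given for 41091 probe sets, several for 1801 and none for 11721, and 62 controls were left out. All 32732 probe sets above the 40th percentile on at least 5 of 10 arrays were fitted with lmFit and eBayes of limma 3.58.1 (R 4.3.3), two-sided, with Benjamini-Hochberg adjustment over all of them and a threshold of 0.05. Signal below the array's 60th percentile on every array of a group is called low. Each gene was read from the brightest of its tested probe sets. Single values were tested by exact permutation of the arrays. Members, lists and the tests were chosen with earlier results of these data known. From each list the text names the 3 called members with the largest differences and up to 3 called in the other direction, and for each member the 3 genes most alike. The test was run on simulated data. Alternatives were other filters, centring on tested probe sets or on 17 housekeeping genes, quantile normalisation, a replicate block, trend and robust eBayes, array weights, an RNA integrity covariate, averaged probe sets per gene, leaving out shared probe sets, and each array left out. Plots were drawn with matplotlib 3.10.9 and pandas 2.3.3 on numpy 2.4.6 (Python 3.11.15).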

Additional observations from a re-analysis of the deposited data

Results flagged for a closer look

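Among 32 groups of 5 arrays (16 probe sets in each of 2 groups), 3 held an array far from the other 4 by Dixon's criterion, where chance gives about 1 in 20. CCND1 probe set 208712_at read 12.10 on proliferating array 5, against 12.40 to 12.49 on the other proliferating arrays. CCND2 probe set 231259_s_at read 4.62 on proliferating array 4, against 3.45 to 3.60 on the others. CDK6 probe set 224848_at read 8.09 on proliferating array 2, against 8.42 to 8.52 on the others. All 3 were proliferating arrays, a different one each time, and no member's call changed when that array was left out. Without proliferating array 5 the difference of CCND1 minus CCND3 turned to -0.08, against 0.03 with it.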

How the results depend on the processing

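All 14 member probe sets kept their direction in every alternative run, and 13 kept their call in all of them. CDK6 on 235287_at was not called with housekeeping centring (0.17, limma's adjusted p = 0.15). That centring also moved the share of calls that were higher to 34.8%, against 50.7% as reported, with 17068 and 17360 calls. The replicate block changed no member's call (CCND1 1.24, CCND2 6.88, CCND3 1.21, CDK4 -1.40, CDK6 0.35; highest adjusted p 0.0033) and gave 16648 calls. The numbers were not taken as pairs: deviations of same-numbered arrays correlated by -0.06 to 0.09, and 2 of 5 numbers correlated best with their own. A paired exact test over 5 pairs could not pass the threshold, so none was run for the ratios between genes. CCND1 minus CCND3, near 0 as reported (0.03), was 0.48 with averaged probe sets per gene (exact permutation p = 0.00794), and it turned to -0.01 without senescent 4 and to -0.0783 without proliferating 5, with a range of -0.0783 to 0.0704 over arrays left out (exact permutation p of 0.94 and 0.33 in those cases). Averaged probe sets gave 1.69 for CCND1, 7.81 for CCND2 and 0.52 for CDK6. Without shared probe sets CDK4 and CCND2 had no value. Of 400 counts over the pathway lists, 12 moved by over 1.5 times, and 9 of 46 genes named from the lists lost their call in at least 1 of 20 alternatives, with 0 reversed. Precision is limited by having 5 arrays a group, and signal near background limits the size of the CCND2 differences.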
